A study of Mus musculus with 60 samples.

Results

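Selectins are the lectins by which leukocytes roll along vessel walls, and the genes described here are P-selectin (Selp), E-selectin (Sele), 3 proteins that selectins bind (Glycam1, Selplg and Podxl2) and 3 enzymes that finish the sugars selectins recognise (Fut7, Chst2 and Chst4). The genes were chosen by name and found through the RefSeq identifier of each probe set on a custom mouse array of glycan-related genes. Of 9 genes asked for, 8 were matched, each to 1 probe set, out of 1246 probe sets on the array; Podxl is not analysed here. The probe sets of Glycam1, Podxl2 and Chst4 are of the kind whose probes also match other transcripts, so their values may include RNA of a related transcript.

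Expression was measured in total RNA on 60 arrays from 18 mice in 18 groups. In the line made for St6galnac2, a sialyltransferase of O-linked glycans, 3 knockout (KO) and 3 wild-type mice gave lymph node, thyroid, brain and intestine, except that KO intestine came from 2 mice; each group held 1 female and 2 males, and KO intestine 1 of each. In the line lacking both B4galnt1 and B4galnt2, which transfer N-acetylgalactosamine in ganglioside synthesis and in the Sda antigen, double knockout (DKO) and wild-type mice gave kidney (5 against 4), mammary gland (5 against 2), thymus (5 against 3) and testes (3 against 3). DKO kidney, thymus and mammary gland each held 2 females and 3 males, wild-type kidney 1 female and 3 males, wild-type mammary gland 1 of each, and wild-type thymus males alone. Wild-type C57 mice gave brain and small intestine (3 each), with sex not used; the sample labels of the line say intestine, while the study's design text says small intestine, and both are called intestine here. Age, the node or nodes sampled, the kind of mutation and the litter were not given in the sources used here. Each tissue therefore came from 1 line, apart from the C57 arrays, so that line and tissue cannot be told apart between the 4 tissues of one line and the 4 of the other.

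Levels are log2 values made by robust multi-array averaging (RMA), in which a difference of 1 is a doubling; the middle value of the whole table was 5.485, and percentile 25 of it was 4.211. Array medians lay between 5.295 and 5.76. In the line for St6galnac2, that gene's probe set read 5.49 to 8.74 on KO and 5.49 to 8.77 on wild-type arrays; those of B4galnt1 and B4galnt2 overlapped between DKO and wild type likewise, taken over the tissues of their line. Within thymus B4galnt1 did not overlap, at 4.73 to 5.23 in DKO and 5.45 to 8.72 in wild type, where 2 of the 3 wild-type arrays are among those that stand apart. Whether these probes lie in the deleted parts was not tested, so they do not check the genotype labels. Of the 60 arrays, 4 stand apart from the others of their labelled tissue: an array of brain and the array of intestine of wild-type animal 9099, and the thymus arrays of wild-type animals N3740 and N3738. Podxl2 stood at 4.93 on that brain array against 9.85 to 10.66 on the other brain arrays, and at 10.45 on that intestine array against 4.74 to 5.48 on the other intestine arrays, so that these 2 arrays go against their labels. All arrays were kept in the fits, and values without these 4 are given where leaving them out changed an order, a sign or a call described here.

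Lymphocytes enter lymph nodes through high endothelial venules, whose cells display mucin-like proteins carrying sulfated, fucosylated and sialylated sugars that selectins bind. Fut7 adds the fucose, Chst2 and Chst4 add the sulfate, and Glycam1, a secreted mucin-like protein also made by the lactating mammary gland, is among the carriers. P-selectin is stored in platelets and endothelium, E-selectin is made by endothelium exposed to cytokines, and both bind PSGL-1, the product of Selplg, on leukocytes. Podxl2 (endoglycan) is a sialomucin related to Cd34 that can carry such sugars.

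The sequences before the start sites of the 3 genes that were higher in lymph node are shown here because these genes share the direction of their difference. They are the 250 bases before each start in RefSeq on GRCm38.p6, 5′ to 3′ on the strand of the gene, with capitals for letters that match GGAAG (the core bound by ETS factors) or TGANTCA (the AP-1 motif), on either strand; the motifs were chosen after the sequences were seen. Glycam1 lies on the minus strand with its window at chr15:103565082-103565331, Chst4 on the minus strand at chr8:110039335-110039584, and Fut7 on the plus strand with one start behind chr2:25422992-25423241 and another behind chr2:25423444-25423693.
Glycam1: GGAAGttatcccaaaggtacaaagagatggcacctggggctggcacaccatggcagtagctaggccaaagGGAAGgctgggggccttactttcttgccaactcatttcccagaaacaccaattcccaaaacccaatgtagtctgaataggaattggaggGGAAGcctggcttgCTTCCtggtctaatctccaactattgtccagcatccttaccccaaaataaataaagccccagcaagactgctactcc
Fut7, first start: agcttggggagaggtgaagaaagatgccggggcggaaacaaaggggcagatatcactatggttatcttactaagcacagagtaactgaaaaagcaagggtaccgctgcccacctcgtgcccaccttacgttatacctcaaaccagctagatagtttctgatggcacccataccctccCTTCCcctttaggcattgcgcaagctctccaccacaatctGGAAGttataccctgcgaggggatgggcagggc
Fut7, second start: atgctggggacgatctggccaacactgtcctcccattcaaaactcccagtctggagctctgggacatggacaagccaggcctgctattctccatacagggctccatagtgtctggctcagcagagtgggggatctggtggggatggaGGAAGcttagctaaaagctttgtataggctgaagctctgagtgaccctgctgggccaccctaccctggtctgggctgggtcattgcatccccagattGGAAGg
Chst4: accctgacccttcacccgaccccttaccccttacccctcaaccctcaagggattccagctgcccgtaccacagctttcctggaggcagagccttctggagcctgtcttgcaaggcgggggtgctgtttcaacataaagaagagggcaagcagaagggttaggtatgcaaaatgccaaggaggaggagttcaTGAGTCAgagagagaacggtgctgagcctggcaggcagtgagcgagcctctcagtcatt
In the Glycam1 window GGAAG began 250, 180 and 91 bases before the start, and its reverse complement CTTCC began 77 bases before it. GGAAG began 33 bases before the first Fut7 start, with CTTCC at 73, and 103 and 6 bases before the second. In the Chst4 window TGAGTCA began 59 bases before the start and GGAAG was not found. These matches were not particular to the 3 higher genes. TGANTCA was also found before Selp and Sele, neither called in lymph node. Windows of Selp, Sele and Podxl2, the last lower in lymph node, held GGAAG or its reverse complement. Neither motif was found before Chst2, and Selplg was not searched. A kappaB-like motif and the TATA box were searched for too, and only a TATA box before Sele was found. GGAAG, on either strand, was held by 64.1% of 32851 mouse windows of the same length, and TGANTCA by 6.75%, so the first match is common to most promoters. A match describes the letters and is no evidence of binding.

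The question of the tissue comparison was how these genes differ between lymph node and the 7 other tissues. Glycam1 had the largest lymph node difference of 962 named probe sets. Fut7 and Chst4 were also higher, Podxl2 was lower, and Selp, Sele, Selplg and Chst2 were not called either way. Thus 3 of the 8 genes were higher, where 11.6% of all named probe sets were called higher, and 1 of 8 was lower, where 8.0% were. Called means an adjusted p under 0.05 in limma, with Benjamini-Hochberg adjustment over the 962 probe sets, and a log2 difference of at least 1. The median difference was 0.33 over the 8 genes and -0.14 over all named probe sets.

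**Figure D1:**
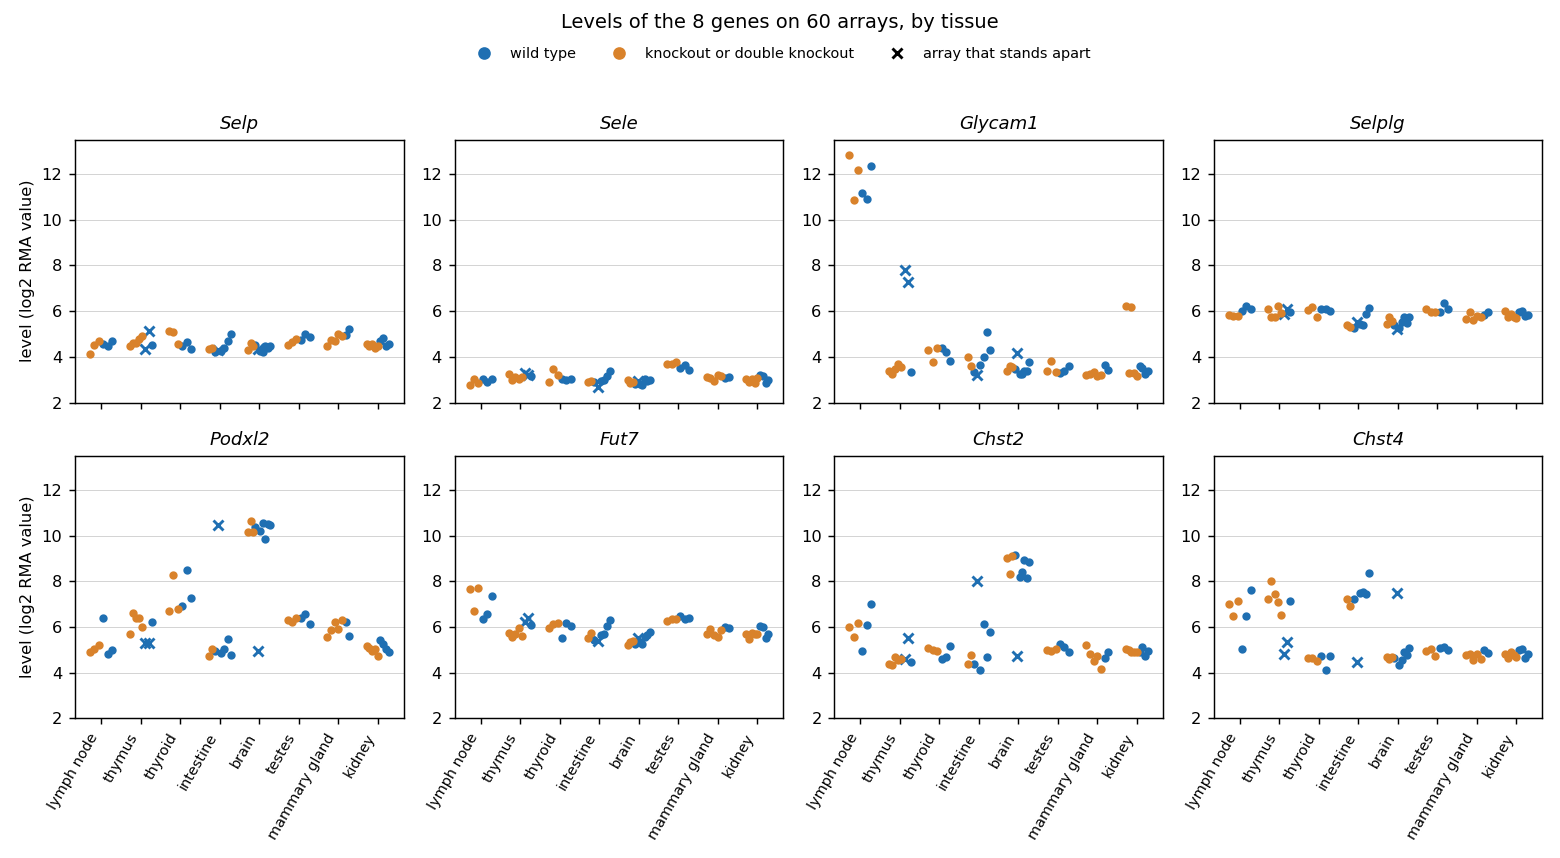
Level (log2 RMA value) of each of the 8 genes on every array, by tissue, with wild type in blue, KO or DKO in orange, and crosses for the 4 arrays that stand apart. Glycam1 lay between 10.85 and 12.83 in lymph node and at or under 7.79 on every other array, Podxl2 and Chst2 were highest in brain, and Selp, Sele and Selplg stayed within narrow bands.

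Among the ligands, Glycam1 read 10.85, 12.19 and 12.83 in the lymph nodes of KO mice 9100, 9361 and 9093, and 12.36, 10.92 and 11.18 in those of wild-type mice 9362, 9099 and 9094. On the 54 other arrays it ran from 3.14 over a median of 3.50 to 7.79. The lymph node arrays were all above every other array, in both genotypes. The lymph node mean of 11.72 ± 0.84 (SD, n = 6) exceeded the mean of the 7 other tissues, 3.83, by 7.89 ± 0.40 (SE; limma adjusted p = 1.87e-24). With all arrays, the order of the other tissues by mean was thymus (4.47), thyroid (4.14), kidney (3.99), intestine (3.89), brain (3.50), testes (3.47) and mammary gland (3.32). No neighbours in that order were called apart except lymph node and thymus, which differed by 7.25 ± 0.50 (limma adjusted p = 2.40e-18). The place of thymus rests on its 2 arrays that stand apart: without the 4 such arrays the order was thyroid (4.14), kidney and intestine (both 3.99), testes (3.47), brain (3.45), thymus (3.44) and mammary gland (3.32), and lymph node over thyroid was the only call among neighbours. Mammary gland, where the gene is known from lactation, was at the bottom, with 3.17 to 3.65 on its 7 arrays, 3 from females and 4 from males. The sample labels give no lactation state. The mammary epithelium list had none of its 8 genes measured, so the epithelial content of these samples was not tested.

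The arrays with the next highest Glycam1 levels came from thymus and kidney. The thymus arrays that stand apart read 7.28 (N3740) and 7.79 (N3738), and the 6 other thymus arrays 3.24 to 3.68. On these 2 arrays the mean level of the 3 measured B cell genes (Cd22, Fcer2a and Cd72) was 6.22 and 6.51, against 6.17 in wild-type N9700 and 5.23 to 6.02 in DKO thymus. That of the 6 lymphoid stroma genes, which are homing chemokines, their receptors and Il7, was 6.53 and 7.04, against 6.81 in N9700 and 5.43 to 6.52 in DKO. The second list thus overlapped for N3740. In both lists every wild-type thymus array was above every DKO one, N9700 included, where Glycam1 read 3.35. On the same 2 arrays the means of 3 other lists were lower than on the 6 other thymus arrays: 6.11 and 5.92 against 7.90 to 8.46 for endothelial genes, 6.12 on both against 6.52 to 6.84 for monocyte genes, and 5.64 and 5.79 against 7.42 to 10.79 for platelet genes. The part of any of these lists in the Glycam1 values was not tested. In kidney, DKO mice N5891 (female) and N5893 (male) read 6.22 and 6.20, and the 7 other kidneys, DKO and wild type, 3.14 to 3.59. Their B cell list stood at 5.40 on both arrays, within the 5.14 to 5.44 of the other kidneys, and their lymphoid stroma list at 5.46 and 5.57, above the 5.11 to 5.30 of all 7 others. Of the B cell list, Cd22 and Fcer2a were nonetheless above the other kidneys on both arrays. They read 6.33 and 4.21 in N5891 and 6.27 and 4.37 in N5893, and at most 6.23 and 4.20 in the others. Cd72, at 5.66 and 5.57, lay within the range of the other kidneys. Of the stroma list, Ccl21a, the near-identical Ccl21c and Cxcl13 were above the other kidneys on both arrays. They read 7.94, 8.07 and 4.61 in N5891 and 7.82, 7.86 and 5.52 in N5893, and at most 7.76, 7.81 and 4.48 in the others. Ccr7 and Cxcr5 lay within the range of the other kidneys on both arrays, while Il7 was above it in N5891 and within it in N5893. The part of either list in the Glycam1 values was not tested.

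**Figure D2:**
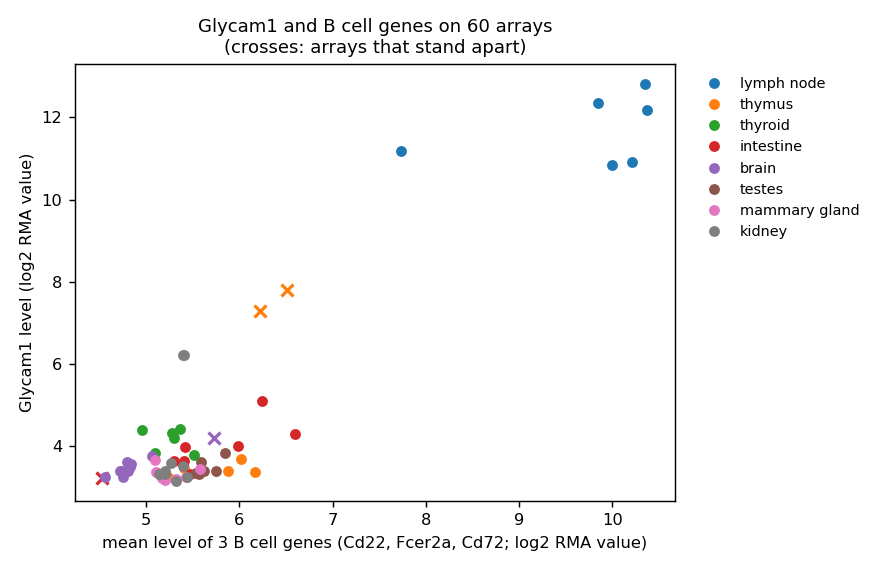
Glycam1 level against the mean level of 3 B cell genes (both log2 RMA values), a point for each of the 60 arrays coloured by tissue, crosses for arrays that stand apart. The 6 lymph nodes sit at the top right. The 2 DKO kidneys at 6.20 and 6.22 lie above the other kidneys, at mean B cell levels within the range of those kidneys (their points overlap). Taken singly, Cd22 and Fcer2a were above the other kidneys on both arrays.

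Selplg, the ligand of P-selectin on leukocytes, varied little. It read 5.80 to 6.23 in the 6 lymph nodes and 5.21 to 6.34 on the 54 other arrays, so the groups overlapped. The lymph node difference was 0.12 ± 0.08 (limma adjusted p = 0.198). Its 8 tissue means spanned 0.54, from 5.54 in intestine to 6.08 in testes, where the median span over named probe sets was 1.831, and 0 of 28 tissue pairs were called, where 26.0% of all combinations of a named probe set and a pair were. Lymph node was nonetheless 0.41 ± 0.10 above both brain and intestine, short of the minimum difference (limma adjusted p = 0.000334 and 0.000526).

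Podxl2 was a gene of brain and thyroid on these arrays. In lymph node it read 5.05, 5.22 and 4.92 in KO mice 9100, 9361 and 9093 and 4.97, 4.82 and 6.40 in wild-type mice 9362, 9099 and 9094, the last standing above the other 5. Thyroid ran from 6.72 to 8.50, above all 6 lymph nodes. Brain was higher again, at 9.85 to 10.66 without the array that stands apart. The lymph node mean of 5.23 was below that of the rest, 6.63, by a difference of -1.40 ± 0.38 (limma adjusted p = 0.00155). It was -4.80 ± 0.46 against brain and -2.18 ± 0.51 against thyroid, and of the 7 neighbouring pairs in the order of tissues only brain over thyroid was called (2.62 ± 0.46, limma adjusted p = 2.74e-06). Thyroid over testes was called too when the arrays standing apart were left out (1.08 ± 0.22, limma adjusted p = 2.96e-05). Lymph node exceeded kidney by 0.18 ± 0.46. Kidney was the lowest tissue with all arrays, and intestine (4.98 against 5.06 in kidney) without those that stand apart, neither called apart from lymph node.

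The lectins Selp and Sele gave low values with little difference between tissues. Selp read 4.11 to 4.69 in lymph node and 4.20 to 5.20 elsewhere, with a difference of -0.13 ± 0.10 (limma adjusted p = 0.253). Its highest mean was in mammary gland (4.85) and its lowest in brain (4.41). Sele read 2.76 to 3.05 in lymph node and 2.70 to 3.79 elsewhere, under percentile 25 of all values on every array. Its difference was -0.19 ± 0.06 (limma adjusted p = 0.0104), under the minimum difference, and it was highest in testes (3.62), by 0.48 ± 0.08 over thymus. No tissue pair of either lectin reached the minimum difference. Since samples are whole tissue, more cells of a type and more RNA per cell cannot be told apart in these results. No detection calls were used here, so a low level and absence of the RNA cannot be told apart.

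Fut7, the fucosyltransferase of leukocytes and high endothelial cells, read 6.68, 7.69 and 7.66 in the lymph nodes of KO mice 9100, 9361 and 9093, and 7.34, 6.56 and 6.33 in those of wild-type mice 9362, 9099 and 9094. Elsewhere it ran from 5.23 over a median of 5.71 to 6.46, and 6 of the 54 other arrays were above the lowest lymph node. The difference was 1.20 ± 0.12 (7.04 against 5.85; limma adjusted p = 2.53e-12), rank 102 of 962. Testes came second with 6.36, within 0.69 ± 0.16 of lymph node, a difference that passed the adjusted p (0.000281) but not the minimum difference. Lymph node was called higher against each of the 6 other tissues, by 1.04 against thyroid up to 1.61 against brain.

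Chst4, the sulfotransferase of high endothelial cells, was shared by lymph node, intestine and thymus. In lymph node it read 6.48, 7.13 and 6.98 in KO mice 9100, 9361 and 9093 and 7.61, 6.49 and 5.05 in wild-type mice 9362, 9099 and 9094. Leaving out the arrays that stand apart, intestine read 6.92 to 8.37 and thymus 6.52 to 7.99, so both overlapped lymph node. The 3 tissue means (7.08 in intestine, 6.69 in thymus, 6.62 in lymph node) were not called apart. Without the arrays that stand apart they were 7.46, 7.23 and 6.62, and lymph node was then below intestine (-0.80 ± 0.21; limma adjusted p = 0.000691) and thymus (-0.59 ± 0.22; adjusted p = 0.0199), still under the minimum difference. With all arrays lymph node exceeded testes, the next in order, by 1.64 ± 0.38 (limma adjusted p = 0.000198). Against the mean of all 7 tissues the difference was 1.23 ± 0.29 (limma adjusted p = 0.000236).

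Chst2, the other sulfotransferase of this sugar, was highest in brain. Brain read 8.16 to 9.14 without the array that stands apart, above all 6 lymph nodes (5.54, 6.19 and 6.01 in KO mice 9100, 9361 and 9093, and 7.01, 6.08 and 4.93 in wild-type mice 9362, 9099 and 9094). Lymph node was second and below brain by a difference of -2.52 ± 0.34 (limma adjusted p = 4.07e-09). It was called higher than thymus (1.31 ± 0.35), mammary gland (1.25 ± 0.36), thyroid (1.05 ± 0.37) and kidney (1.02 ± 0.34). Without the arrays that stand apart, intestine joined these (1.11 ± 0.22; limma adjusted p = 2.41e-05). Against the mean of all 7 tissues, with brain among them, the difference of 0.53 ± 0.28 was not called (limma adjusted p = 0.100). Leaving out the arrays that stand apart gave 0.60 (adjusted p = 0.00276), still under the minimum difference, and without lymph node 9094 it was 0.74 (adjusted p = 0.0306).

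**Figure D3:**
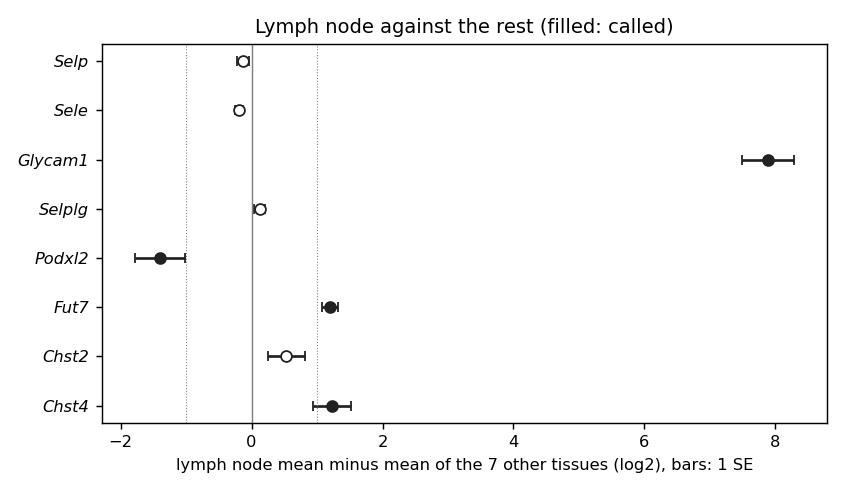
Difference between the lymph node mean and the mean of the 7 other tissues (log2) for the 8 genes, with bars of 1 SE, filled points for called differences and dotted lines at the minimum difference of 1. Glycam1 (7.89) lies far to the right, Fut7 and Chst4 just past 1, and Podxl2 at -1.40.

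The 4 calls were also made without the tissues of the other line, where 125 of 962 named probe sets were called higher and 106 lower. Within the St6galnac2 line, paired by animal as a fixed replicate block, lymph node minus the mean of thyroid, brain and intestine was 8.01 for Glycam1, 1.43 for Fut7, 1.28 for Chst4 and -2.57 for Podxl2 (limma adjusted p from 3.90e-14 to 0.0107). Chst2 stood at -0.18 there, on the other side of 0, with brain 1 of the 3 tissues in that mean. With wild-type mice alone, Glycam1 was 7.45 (limma adjusted p = 1.07e-10) and was the only one of the 8 called, where 96 of 962 named probe sets were called higher and 43 lower. Fut7 was then 0.80, Chst4 1.05 (adjusted p = 0.143) and Podxl2 -1.21 (adjusted p = 0.244), all in the same direction.

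Seen tissue by tissue, the number of the 8 genes called higher in lymph node was 4 against thyroid, mammary gland and kidney, 3 against thymus and brain, and 2 against intestine and testes; without the arrays that stand apart it was 3 against intestine. The shares of all named probe sets called higher were 12.5%, 9.56%, 14.1%, 10.8%, 15.3%, 12.9% and 20.2% in that order. Called lower in lymph node were Chst2 and Podxl2 against brain, 2 of the 8 where 21.1% of named probe sets were, and Podxl2 against thyroid, 1 of the 8 where 9.56% were. Podxl2 against testes was not called with all arrays (-1.11 ± 0.51, limma adjusted p = 0.0549). It was called lower there without the arrays that stand apart (-1.10 ± 0.22, limma adjusted p = 1.97e-05). Glycam1 was among the called genes in each of the 7. The span of tissue means set the genes apart: that of Glycam1, 8.40, lay at percentile 99.8 of all named probe sets, Podxl2 at 92.9, Chst2 at 84.5, Chst4 at 64.1 and Fut7 at 43.5, with Sele at 16.1, Selplg at 8.94 and Selp at 5.51. Of the ligands, Glycam1 and Podxl2 thus stood highest on this scale and Selplg low on it, beside the lectins Selp and Sele. The 3 enzymes lay between.

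The 6 lymph nodes were not alike. Wild-type animal 9094 had the lowest Fut7, Chst2 and Chst4 and the highest Podxl2 of the 6, though not the lowest Glycam1. Its B cell list stood at 7.74 against 9.84 to 10.37 in the other 5, its only measured T cell gene, Il7r, at 5.20 against 8.04 to 8.81, and its only measured fat cell gene, Angptl4, at 11.31 against 8.86 to 10.45. The part of tissue makeup in the values of this animal was not tested. Leaving it out gave 1.34 for Fut7, 1.55 for Chst4, -1.64 for Podxl2 and 8.0 for Glycam1.

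**Figure D4:**
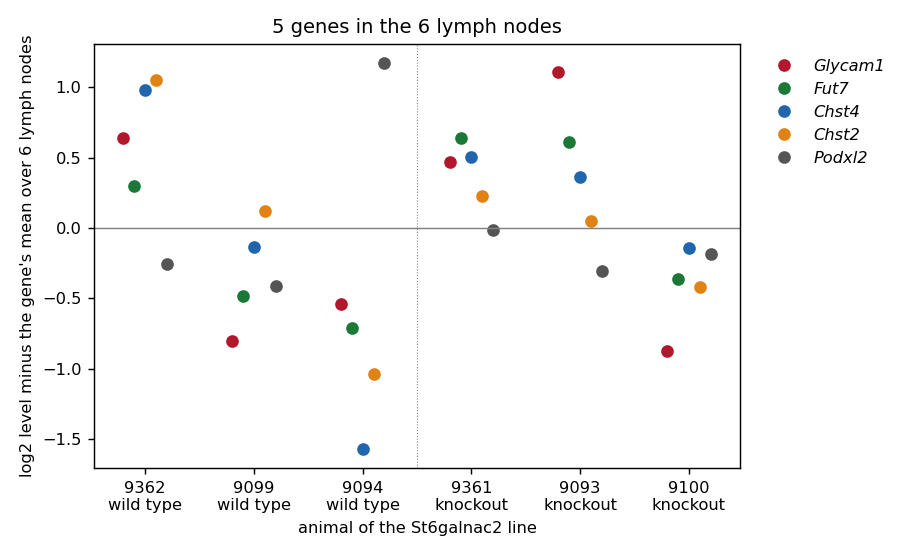
Level of 5 genes in each of the 6 lymph nodes, as the log2 level minus that gene's mean over the 6, wild type left of the dotted line and KO right. Animal 9094 lies below the mean for Fut7 (6.33), Chst4 (5.05) and Chst2 (4.93) and above it for Podxl2 (6.40).

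The lymph node samples carried the genes that define the tissue. All 6 measured genes of the lymphoid stroma list (12 listed) were called higher, with a median difference of 4.45, among them Cxcl13 (5.60 ± 0.50), Ccr7 (4.73 ± 0.24) and the near-identical Ccl21a (4.50 ± 0.35) and Ccl21c (4.39 ± 0.32). So were all 3 measured B cell genes (9 listed; Fcer2a 4.68 ± 0.23, Cd72 4.21 ± 0.22, Cd22 4.15 ± 0.17) and Il7r (4.27 ± 0.21), the only one of 9 T cell genes measured. Of the endothelial list, 4 of 11 genes were measured and Pecam1 was called higher (1.89 ± 0.30); Emcn stood at -0.07 ± 0.35. Among monocyte genes 2 of 5 measured were higher, Siglec1 (1.51 ± 0.12) and Csf1r (1.06 ± 0.17), and among platelet genes 1 of 3, Clec1b (1.02 ± 0.41), while Pf4 stood at -0.52 ± 0.29. No podocyte gene was measured. The single fat cell gene, Angptl4, was higher by 1.46 ± 0.33.

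Of 35 further genes of the selectin ligand pathway reported on here, 29 were measured. Of these 1 was called higher, where 11.6% of all named probe sets were, and 2 lower, where 8.0% were. The other 26 were neither, and the median difference over the 29 was -0.33, against -0.14 over all named probe sets. Higher was Cd44 (1.77 ± 0.23), a hyaluronan receptor that also binds E-selectin. Lower were Fut9 (-2.05 ± 0.45), a fucosyltransferase that makes Lewis x in brain, and Papss1 (-1.35 ± 0.23), which makes the sulfate donor. Over all 962 named probe sets, 206 had an adjusted p under the threshold above 0 and 320 below it, of which 112 and 77 reached the minimum difference. In the pathway list a further 10 had an adjusted p under the threshold but a difference under the minimum, 3 above 0 and 7 below. Those above 0 were Tpst2, which sulfates tyrosines such as those of PSGL-1 (0.79 ± 0.10), Slc35c1, which carries GDP-fucose into the Golgi (0.63 ± 0.25), and Madcam1, the mucosal addressin (0.52 ± 0.13). Those below 0 were Gmds, Cd34, C1galt1c1, Slc35a3, B4galt4, Fpgt and Galnt2, from -0.95 ± 0.31 for Gmds, an enzyme of GDP-fucose synthesis, to -0.33 ± 0.14 for Galnt2; Cd34, a sialomucin of endothelium, stood at -0.87 ± 0.32.

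Genes whose tissue means were most like those of a member are a description over 8 tissue means that share the arrays, and carry no test. For Glycam1 they were Fcer2a (Pearson r = 0.993), Cxcr4 (0.988) and Cd69 (0.988), for Fut7 they were Ccr6 (0.958) and Xcr1 (0.951), and for Chst4 they were B3gnt6 (0.925), Clec1b (0.87) and Galnt12 (0.847). For the brain genes they were Dctn5 (0.992), Chst10 (0.972) and Galnt9 (0.968) with Chst2, and Gdf1 (0.989), Galnt17 (0.987) and St8sia5 (0.979) with Podxl2. The 3 genes of narrow range had Gdf5 (0.97), Il1f5 (0.928) and Gfra3 (0.924) beside Selp, Pspn (0.993), Wnt3a (0.982) and Il22ra1 (0.978) beside Sele, and Ifnl3 (0.946), Hpse2 (0.94) and Clec3a (0.922) beside Selplg. Among the 8 genes themselves, Glycam1 and Fut7 had r = 0.843 and Podxl2 and Chst2 r = 0.787. With 1 tissue far above the rest, as for Glycam1, r reflects mostly that tissue.

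The study was made to compare KO with wild type. In 8 genes and 8 tissues, 0 of 64 differences passed the adjusted p in limma, where 0.0% of named probe sets were called in lymph node, thyroid, brain, intestine, thymus and mammary gland, 0.104% in kidney and 0.312% in testes; 3 of the 64 had an unadjusted p under 0.05. The fits had the sex of the animal as a covariate, except in testes. Differences ran from -2.58 (Glycam1) to 1.23 (Chst4), both in thymus, where 2 wild-type arrays stand apart. Without the arrays that stand apart all 64 lay between -0.34 (Podxl2 in lymph node) and 0.97 (Glycam1 in kidney), 0 passed the adjusted p, and the sign had turned for 4 of 8 genes in thymus, 3 of 8 in intestine and 2 of 8 in brain. Chst4 in thymus was then -0.13 ± 0.43 (limma adjusted p = 0.989), and Podxl2 in intestine, -1.59 ± 2.16 with all arrays, was -0.012 ± 0.17 (adjusted p = 0.991). In lymph node Glycam1 was 11.95 ± 1.01 in KO and 11.48 ± 0.77 in wild type (SD, n = 3 each), a difference of 0.47 ± 0.64 (limma adjusted p = 0.823), Fut7 differed by 0.60 ± 0.42 and Chst4 by 0.48 ± 0.58 (both adjusted p above 0.8), and KO and wild type overlapped in all 3. Selplg did not overlap there, at 5.80 to 5.82 in KO and 5.98 to 6.23 in wild type (-0.29 ± 0.15, limma adjusted p = 0.802). The share of all named probe sets without overlap is not given here.

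**Figure D5:**
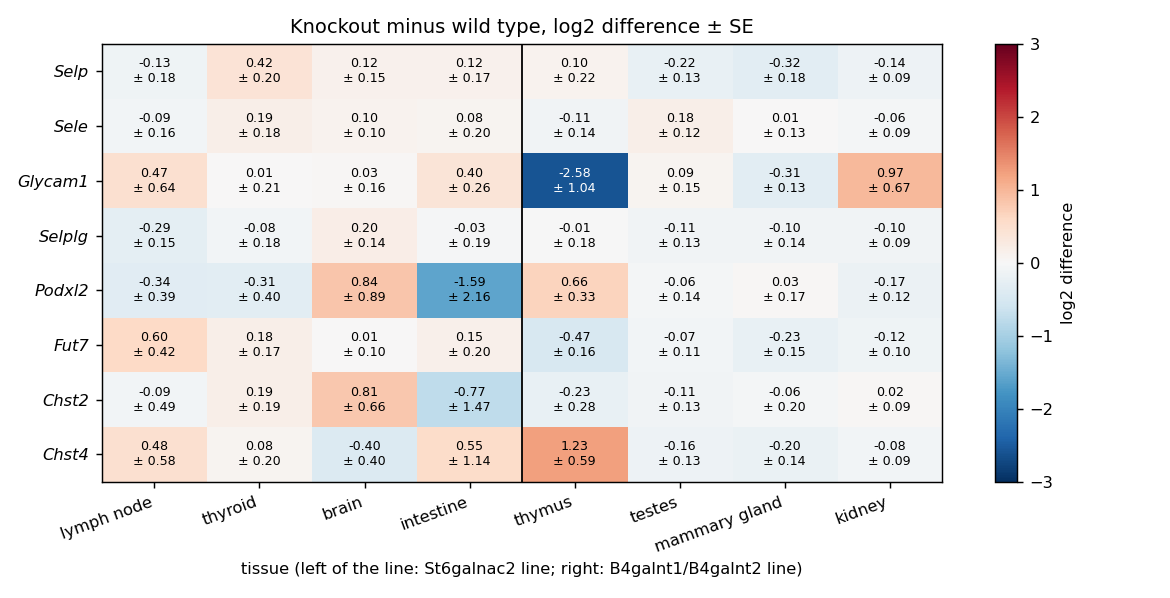
KO or DKO minus wild type for each of the 8 genes in each tissue, as a log2 difference ± SE, red for higher and blue for lower in KO; none passed the adjusted p. The largest are Glycam1 in thymus (-2.58) and Podxl2 in intestine (-1.59), which without the arrays that stand apart were 0.21 and -0.012.

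The 3 differences at an unadjusted p under 0.05 were Glycam1 in thymus (-2.58 ± 1.04; limma adjusted p = 0.233), Fut7 in thymus (-0.47 ± 0.16; adjusted p = 0.233) and Glycam1 in mammary gland (-0.31 ± 0.13; adjusted p = 0.465). In thymus the wild-type values of Glycam1 were 3.35 (N9700), 7.28 (N3740) and 7.79 (N3738) against 3.24 to 3.68 in 5 DKO mice. The first thus lay among the DKO mice, and the other two are arrays that stand apart. Leaving out both turned the difference to 0.21 ± 0.17 (limma adjusted p = 0.989). Without N9700, which leaves only the arrays that stand apart as wild type, 4 of the 8 genes were called, where 39.0% of all probe sets were: Glycam1 (-3.98), Fut7 (-0.55), Chst4 (1.92) and Podxl2 (0.96). A fit of all groups of the line together also called these 4, where 27.9% of all probe sets were called.

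In kidney, Glycam1 was 4.43 ± 1.62 (SD, n = 5) in DKO and 3.43 ± 0.16 (n = 4) in wild type, a difference of 0.97 ± 0.67 (limma adjusted p = 0.5005) that rests on mice N5891 and N5893. The 3 other DKO kidneys, at 3.14 to 3.31, lay at or near the wild-type range of 3.23 to 3.59. A KO effect that differed between the tissues of a line was not called for any of the 8 genes; the smallest adjusted p values were 0.100 for Chst4 and 0.117 for Glycam1 in the B4galnt line, where 33 of 962 probe sets were called, and 0 were in the St6galnac2 line.

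Against C57, no gene of the 8 passed the adjusted p in brain or intestine, where 0.0% of named probe sets were called, with 103 and 112 of 962 at an unadjusted p under 0.05. In intestine, where the sample labels say small intestine for C57 alone, Glycam1 read 3.63, 3.21 and 3.32 in wild-type mice 9362, 9099 and 9094 (the array of 9099 goes against its label) and 3.98, 5.09 and 4.28 in the C57 mice, which all lay higher. The difference was -1.07 ± 0.33 (limma adjusted p = 0.367), and -0.98 ± 0.36 (adjusted p = 0.212) without the array of 9099, where 1 of 962 probe sets was called. The B cell list moved with it, at 5.31 and 5.47 in wild-type mice 9362 and 9094, 4.53 on the array of 9099 and 5.99 to 6.59 in C57, as did the lymphoid stroma list, at 5.75, 5.69, 4.59 and 6.01 to 6.47; their part in the result was not tested, and any difference in the stretch of intestine sampled cannot be told apart from the line. Glycam1 was not alone in intestine. Fut7, Selp and Sele also lay higher in every C57 mouse than in every wild-type mouse of the line. The median difference over all 962 probe sets was -0.25, and the share of them that did not overlap is not given here. Without the array of 9099, Chst2 in intestine was -1.26 ± 0.45 (limma adjusted p = 0.212), after -0.016 with all arrays. Podxl2 there turned from 1.65 to -0.20. In brain, Fut7 stood at 5.31 against 5.66 in C57 (-0.35 ± 0.12; adjusted p = 0.412).

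Between females and males, none of the 8 genes passed the adjusted p, where 9.04% of named probe sets were called in kidney and 0.312% in mammary gland. In mammary gland, of 3 females and 4 males, Podxl2 stood at 5.68 in females and 6.15 in males (-0.47 ± 0.15; limma adjusted p = 0.351) and Chst2 at 4.98 and 4.50 (0.47 ± 0.19; adjusted p = 0.427).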

How the data were processed

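Total RNA of mouse tissues was hybridised to a custom Affymetrix array. The authors deposited log2 values from RMA (version not given in the sources used here), per the submitters' processing notes; the genome build is not given in the sources used here. They were used as deposited and lay between 2.113 and 14.069. Probe sets were named through RefSeq accessions in the supplied gene table: 962 of 1246 matched (908 genes) and entered the tests, and 284 did not. Of the named ones, 217 have shared probes.

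Each animal counted as 1 replicate in a tissue, and 9099, with 2 brain arrays, entered with their mean. P-values measure the spread between these animals, and their number limits the precision. Tissues were compared with limma 3.58.1 in R 4.3.3, with all animals in 1 fit and the animal as a random block (correlation 0.0015). KO, C57 and sex comparisons were fitted within a tissue and called at an adjusted p under 0.05. Fits were tested on simulated data with independent errors, no shared animal effect and no misplaced arrays. That test therefore does not cover the arrays that stand apart, and its outcome is not given here. Errors are SE beside differences and SD beside means. Animal numbers pair tissues of the same mouse, so the pairing comes from the labels.

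Named genes were the 8 members, the 3 genes most alike to each (2 for Fut7), and at most 4 called genes of each list. Emcn, Pf4 and the pathway genes under the minimum difference (Tpst2, Slc35c1, Madcam1, Gmds, Cd34, C1galt1c1, Slc35a3, B4galt4, Fpgt and Galnt2) are named outside that rule and were chosen after their values were seen. The members and lists were chosen with earlier results of these data known. The sex of intestine sample 9093 was taken from its title. Alternatives were other normalizations, filters, animals and arrays left out, and other fits. A gene of the pathway list is not reported here.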

Additional observations from a re-analysis of the deposited data

Results flagged for a closer look

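Of 32 combinations of a gene and a group of 4 to 10 animals, 1 held an animal far from the others: Fut7 in DKO kidney of animal N5892 stood at 5.47, with the 4 others between 5.68 and 5.75. Chance flags about 1 in 20 such groups.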

How the results depend on the processing

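With wild-type animals only, the number of the 8 genes called in lymph node against the rest fell from 3 to 1 higher and from 1 to 0 lower. Over all 962 named probe sets the calls also fell, from 112 to 96 higher and from 77 to 43 lower. The number of the 8 genes higher was then 1 against thymus, thyroid, intestine, testes, mammary gland and kidney. With wild-type animals only and without the 4 arrays that stand apart, a setting added after seeing the data, that number was 1 against the rest, where 103 of 962 were called higher. It was 1 against thymus and 2 against mammary gland. Fewer animals enter both fits, and their shares of all probe sets against single tissues are not given here. With no minimum difference 2 genes were lower, where 320 of 962 named probe sets were. In thymus KO against wild type 4 genes were called in a single fit of the line, where 27.9% of all probe sets were. Leaving out each animal gave 0 to 4, the 4 where 39.0% were. Signs reversed for Selp (0.026 within the line, 0.029 there without the arrays of 9099), Selplg (-0.020 after a second quantile normalization), Chst2 (-0.18 within the line and -0.0065 there without the arrays of 9099) and, without the arrays that stand apart, Glycam1 (0.21) and Chst4 (-0.13) in thymus KO against wild type; the cause was not tested. Without the replicate block the counts stayed at 3 and 1, with 112 and 77 over all 962, and Glycam1 was 7.89. Paired as a fixed replicate block within the line, Glycam1 was 8.01. Leaving out each lymph node animal gave 3 higher and 1 lower every time, where 106 to 118 of 962 named probe sets were higher and 73 to 111 lower. Centring arrays on their medians turned the split over all probe sets from 112 higher and 77 lower to 106 and 106, and a second quantile normalization to 110 and 102, with medians of -0.25 and -0.20 in place of -0.14. Called neighbours in the order of tissues were 4, and 6 without the arrays that stand apart, which added Podxl2 in thyroid over testes and Chst2 in lymph node over intestine. Each of the 8 genes has 7 neighbouring pairs, and the share of such pairs called over all named probe sets is not given here.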
